A study of Mus musculus with 6 samples.

Results

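Arginine tRNAs were followed as a family in small RNA sequencing of mouse brain. The members were all cytosolic tRNA references of the deposited tables whose name begins with Arg, 19 of the 190 references listed in any library. They comprised 3 references with the anticodon ACG, 3 with CCG, 4 with CCT, 4 with TCG and 5 with TCT. The tables count the reads at each position of a reference, the bases called there, the reads that start there, the deletions and the insertions. A position is listed from 30 reads upward, so an unlisted position is a bound of under 30 reads and not a zero.

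The study sequenced total RNA of 3 wild-type (WT) brain samples and 3 brain samples with a TRMT1L knockout (KO), described as biological triplicates. The sources used here give no strain, age, sex, knockout allele or pooling of animals for either genotype, and both groups shared the tissue and the library protocol. The genotypes are as labelled, with no check on Trmt1l RNA, which was not analysed here. The p-values below measure the spread between these libraries.

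A tRNA carries an amino acid to the codon that its anticodon, bases 34 to 36, pairs with. CCT and TCT read the AGG and AGA codons of arginine, while ACG, CCG and TCG serve the codons that begin with CG. Many tRNA bases are methylated, and a methyl group on the base-pairing face makes reverse transcriptase stop, insert a wrong base or skip a base. For arginine tRNAs the textbook sites are guanosine 26 (m2,2G, made by TRMT1, the paralogue of TRMT1L), cytidine 32 (m3C, made by METTL2 in the CCT and TCT isoacceptors), adenosine 34 (deaminated to inosine by ADAT2 and ADAT3 in ACG), position 37 beside the anticodon, and adenosine 58 (m1A, made by TRMT6 and TRMT61A). Inosine is read as guanine.

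The stretches below are shown because the members differ in how far reads covered them and in the bases at positions 26, 32 and 58. They run 5′ to 3′ over the positions listed in any library, as written in the deposited tables, with the listed anticodon bases in capitals.
Arg-ACG-3, positions 14 to 76: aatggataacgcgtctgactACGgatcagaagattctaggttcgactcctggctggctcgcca
Arg-TCG-2, positions 15 to 76: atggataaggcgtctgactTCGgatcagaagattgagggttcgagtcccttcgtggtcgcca
Arg-CCG-1, positions 17 to 31: ggataaggcgtctga
Arg-CCG-1, positions 35 to 76: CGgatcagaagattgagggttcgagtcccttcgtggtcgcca
Arg-CCG-3, positions 12 to 76: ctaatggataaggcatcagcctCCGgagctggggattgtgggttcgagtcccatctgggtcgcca
Arg-CCT-1, positions 12 to 31: ctaatggataaggcactggc
Arg-CCT-1, positions 34 to 65: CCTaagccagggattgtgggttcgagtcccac
Arg-CCT-3, positions 19 to 64: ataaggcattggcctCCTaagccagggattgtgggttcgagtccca
Arg-TCT-4, positions 11 to 43: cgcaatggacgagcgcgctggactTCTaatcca
Position numbers are those of the reference and equal the canonical tRNA numbers, except in Arg-TCT-4, where canonical 26 is reference position 27. The reference set and genome build are not given in the sources used here, so no genome coordinates are stated. The RefSeq table of GRCm38.p6 lists 24 mouse tRNA-Arg genes, of which 6 are ACG, 3 CCG, 5 CCT, 5 TCG and 5 TCT.

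References that share sequence can share reads. Only copies with identical counts were merged for the tests, so near copies were tested and counted as separate references and sites. The share of equal counts differed between pairs. Arg-CCG-1 and Arg-TCG-2 were identical over the 57 positions listed in both, and 41.5% of their 248 paired counts were equal. Arg-CCT-1 and Arg-CCT-2 were identical over 51 positions, with 53.8% of 301 paired counts equal. Arg-CCT-3 and Arg-CCT-4 were identical over 46 positions, with 5.94% of 202 paired counts equal, and differed from Arg-CCT-1 at 1 of 44 shared positions. Arg-TCG-3 matched Arg-TCG-2 over all 41 shared positions, with 3.87% of 181 paired counts equal. Arg-TCG-4 matched Arg-TCG-2 over 28 positions with 0 of 132 equal, and Arg-ACG-1 matched Arg-ACG-3 over 30 with 2 of 119 equal. A low share does not mean separate reads, since a difference of 1 read makes counts unequal. Arg-ACG-1 and Arg-ACG-3 both had 26 and 41 read starts at position 55 in WT replicates 2 and 3, and 64, 51 and 44 in KO. At position 40, Arg-TCG-2, Arg-TCG-3 and Arg-TCG-4 all had 8 and 20 starts in WT replicates 2 and 3, and 15 and 35 in KO replicates 1 and 2. Past position 34 the 42 listed bases of Arg-CCG-1 are also those of Arg-TCG-2, so reads from there cannot be told apart.

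Depth on arginine tRNAs was low. In WT, 6151209, 6295061 and 6274159 bases were called over all tRNA references, and in KO 8295437, 7981301 and 8797395. Arginine references took 0.788% to 1.16% of them. Coverage of arginine positions ran from 30 to 801 reads, and none came near 7900 reads, from which other references were treated as truncated by a depth limit. Of the 19 references, 13 were listed in all 6 libraries. Across them 374 positions were listed in every library and 150 had at least 100 reads in each, 45 of these in Arg-CCT-1 and 45 in its near copy Arg-CCT-2. The other 6 were Arg-ACG-1 and Arg-TCT-1, each missing from 1 WT library, Arg-ACG-2, Arg-TCT-2 and Arg-TCT-3, listed in KO only, and Arg-TCT-5, listed in WT only. Since each KO library was deeper, absence from WT is no sign of a lower level there.

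WT replicate 2 stood apart on 3 references. Arg-TCG-1 reached 370 reads there and 38 to 62 in the other 5 libraries. Arg-TCT-1 reached 459 reads there and at most 83 elsewhere, and Arg-TCT-5 reached 217 reads there and fewer than 30 in each other library. The reads of that library also differed from the reference: at Arg-TCT-1, 427 of 451 bases carried T48C and 436 of 452 carried T60C (reference base, position, base read). In Arg-TCT-5, 76 of 210 bases carried T48C and 82 of 143 carried G64T. In Arg-TCG-1, 35 of 92 bases carried A46G. Values of these references are therefore given with and without that library.

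The isoacceptors left reads over different parts of the molecule (the plot of coverage along the references). Arg-CCT-1 and its near copy Arg-CCT-2 were the best covered in each library except WT replicate 2, where Arg-TCT-1 was higher, and appeared as a 5′ fragment and a separate 3′ fragment. The highest coverage of Arg-CCT-1 was 420, 382 and 300 reads in WT and 612, 607 and 801 in KO, in each library within the 5′ fragment. Those reads began at positions 12 (207, 184 and 120 reads in WT; 278, 238 and 456 in KO), 13 and 15. Coverage then fell inside the anticodon stem and again at its end. From position 29 to 30 it kept 33% ± 4.89 (SD, n = 3) in WT and 30.5% ± 5.23 (SD, n = 3) in KO. From 31 to 32, the site of m3C, it went from 114 to 216 reads to under 30 in all 6 libraries.

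**Figure D1:**
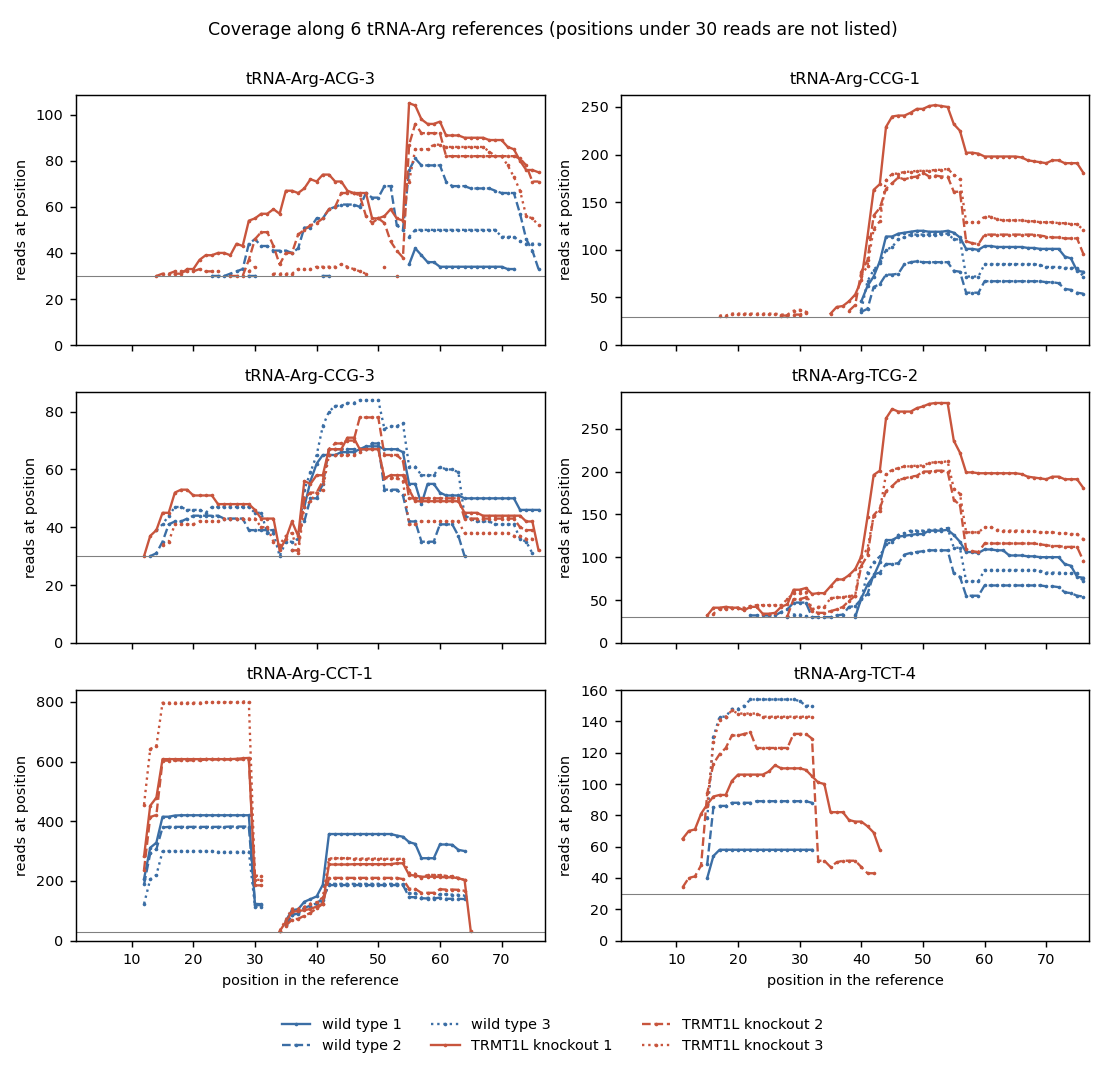
Reads covering each position (vertical axis, read count) along 6 tRNA-Arg references (horizontal axis, position in the reference), with 1 line per library, blue for wild type and red for TRMT1L knockout; the grey line marks 30 reads, below which no position is listed. Arg-CCT-1 shows 2 blocks with a gap around position 32, Arg-ACG-3 and Arg-CCG-1 are densest in the 3′ part, and Arg-TCT-4 is seen in its 5′ part.

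The 3′ fragment of Arg-CCT-1 began at 34 or 35 and gained most reads at position 42, where 170, 44 and 55 reads started in WT and 131, 93 and 137 in KO. Its highest coverage was 357, 186 and 190 reads in WT and 259, 210 and 276 in KO. These unscaled ranges overlap, but the KO libraries were deeper, and the scaled comparison of this fragment is given with the 5′ to 3′ ratio. It ended inside the T stem. From position 64 to 65 coverage fell from between 139 and 300 reads to under 30 in 5 libraries and to 32 in KO replicate 1. No CCT reference was listed past position 65.

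Among the others, Arg-ACG-1, Arg-ACG-3, the CCG references, Arg-TCG-1 and Arg-TCG-2 were listed in at least 1 library to position 76, the end of the CCA tail that holds the amino acid. Arg-TCG-3 and Arg-TCG-4 were listed to position 56, and no TCT reference past position 75. Arg-CCG-1, with Arg-TCG-2, had its reads start between 40 and 44 and was still covered at position 76 by 77, 54 and 72 reads in WT and 181, 96 and 121 in KO. In Arg-ACG-3 the densest start lay later, at position 55 in the T loop, with 14, 26 and 41 starting reads in WT and 64, 51 and 44 in KO. Arg-CCG-3 had 67 to 84 reads at its highest point in each library. KO replicate 1 listed all positions from 12 to 76, while WT replicate 1 listed none before 38, KO replicate 2 none before 36 and WT replicate 2 none past 64.

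Arg-TCT-4 carries the name of the tRNA-Arg gene known for expression in the nervous system. It was seen as a 5′ fragment, with a highest coverage of 58, 89 and 154 reads in WT and 112, 133 and 147 in KO. In WT and in KO replicate 3 the reads ended at reference position 32, canonical 31, and the next position had fewer than 30 reads. In KO replicate 1 coverage went on, from 105 to 101 reads over that step, and in KO replicate 2 it fell from 129 to 51. The same 2 libraries also held reads that start at position 11, 55 in KO replicate 1 and 32 in KO replicate 2, whereas position 11 had fewer than 30 reads in the other 4. KO replicate 3 was like WT in both respects.

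Position 26 holds guanosine in ACG, TCG, TCT-4, CCG-1 and CCG-2, and adenosine in CCT and CCG-3. At A26 of Arg-CCT-1, with 297 to 799 bases called, 0 mismatches and 0 deletions were seen in each library, which allows a share of at most 1.01% in the shallowest library. G26 of Arg-TCG-2 was listed in 3 libraries. It was read as thymine in 6 of 32 bases in WT replicate 2, 4 of 24 in KO replicate 1 and 8 of 44 in KO replicate 3, or 18.8%, 16.7% and 18.2%. In KO replicate 1, 11 of 34 reads also lacked the base. Arg-TCG-3 gave nearly the same counts in these libraries but 0 of 30 misread in KO replicate 2, and Arg-TCG-1 had 1 of 40 misread in KO replicate 3. Arg-ACG-3 gave 0 mismatches in 31 bases in WT replicate 2, 39 in KO replicate 1 and 30 in KO replicate 2. Arg-CCG-1 and Arg-CCG-2 were listed in KO replicate 3 alone, with 0 mismatches in 33 and 31 bases.

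At G26 of Arg-TCT-4 the base was skipped more often than misread. Deletions took 8 of 58, 9 of 89 and 6 of 154 reads in WT and 0 of 112, 12 of 123 and 16 of 143 in KO. The shares were 13.8%, 10.1% and 3.9% in WT and 0%, 9.76% and 11.2% in KO, so the groups overlapped. The means were 9.27% ± 5 (SD, n = 3) and 6.98% ± 6.09 (SD, n = 3), and the exact two-sided permutation test gave p = 0.6, where 3 against 3 libraries cannot give less than 0.1. The KO library with 0 deletions was replicate 1, the library whose Arg-TCT-4 reads ran longest.

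At cytidine 32, most bases of Arg-CCT-3 and Arg-CCT-4 were misread, some bases of Arg-TCT-2 and Arg-TCT-3, and none of Arg-TCT-4 or of the listed ACG, CCG-3 and TCG references (the plot of mismatch at position 32). Arg-CCT-1 and Arg-CCT-2 were not listed there in any library. The split was not tested. The 3′-fragment references Arg-CCT-3 and Arg-CCT-4 were covered there in KO libraries only. All 48 bases of Arg-CCT-3 in KO replicate 3 were misread, 39 as thymine and 9 as adenine. In Arg-CCT-4, 39 of 49 bases were misread in KO replicate 1 and 49 of 54 in KO replicate 3, or 79.6% and 90.7%. Arg-TCT-2 and Arg-TCT-3, listed at this position in KO replicate 3 alone, had 11 of 34 and 11 of 31 bases misread, each time as thymine. In contrast, C32 was read correctly in every base of the ACG, CCG-3 and TCG references, with 30 to 58 bases in each listed library, WT included. Arg-TCT-4 also had 0 mismatches, in 101 bases in KO replicate 1 and 51 in KO replicate 2. No WT library reached 30 reads at C32 of a CCT or TCT reference, so the genotypes could not be compared there.

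**Figure D2:**
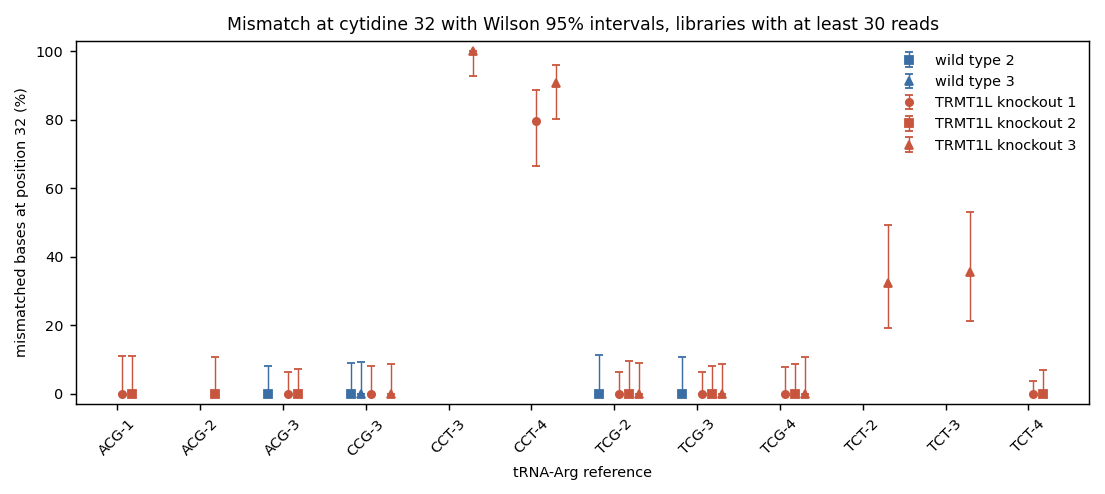
Share of called bases that differ from cytidine at position 32 (vertical axis, percent) for each tRNA-Arg reference (horizontal axis) in the libraries that list it; points are single libraries, blue for wild type and red for knockout, and bars are Wilson 95% intervals for counting error. The CCT points lie between 79.6% and 100%, TCT-2 and TCT-3 near 11 of 34 and 11 of 31 bases, and all other points at 0.

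The wobble base A34 of the ACG references was read mostly as adenine. Arg-ACG-3 had 0 guanines in 41 bases in WT replicate 2 (Wilson 95% interval up to 8.57%), 2 in 57 in KO replicate 1 (3.51%), 3 in 35 in KO replicate 2 (8.57%) and 2 in 31 in KO replicate 3 (6.45%). Arg-ACG-1 had 3 in 32 in KO replicate 1 (9.38%), which shares sequence with Arg-ACG-3. Guanine was thus seen in each listed KO library and not in the WT library listed, but the KO intervals lie across its upper bound. No test was possible, since WT replicates 1 and 3 had fewer than 30 reads.

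Position 37, guanosine after ACG, CCG and TCG and adenosine after CCT and TCT, was read without error. All 51 values from 14 references showed 0 mismatches in 31 to 140 bases, and the least deep of them allows a share of up to 9.68%. Position 9, where m1G occurs in several tRNAs, was not covered: the lowest position listed in any library was 11.

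Adenosine 58, the m1A site of the T loop, was misread in a large share of the reads of the CCG and CCT references and of Arg-TCG-2, and in few of the ACG reads (the plot of base calls at position 58). In Arg-CCT-1, 52.7%, 59.6% and 69.9% of called bases were misread in WT and 65.8%, 58.8% and 56.6% in KO. In Arg-CCG-1 the shares were 50%, 52.7% and 88.6% in WT and 76.9%, 61.7% and 75.2% in KO. Arg-TCG-2, with nearly the same counts, had 46.7% to 88.6%, so each value given for Arg-CCG-1 at A58 is equally one of TCG. In Arg-ACG-3 the shares were 11.1%, 6.41% and 0% in WT and 2.08%, 1.09% and 4.71% in KO, from 36 to 96 bases. Arg-ACG-1, which shares sequence and read starts with Arg-ACG-3, had at most 2.3% in any of its 5 libraries. Position 55, just before A58, took 24.5% to 93.2% of the listed read starts of Arg-ACG-3, depending on the library; the part of this in its low share was not tested.

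Averaged over the 6 libraries, misreading at A58 was 4.23% in Arg-ACG-3, 67.5% in Arg-CCG-1, 58.1% in Arg-CCG-2, 49.2% in Arg-CCG-3 and 60.5% in Arg-CCT-1. Arg-ACG-3 was lowest in 6 of 6 libraries against each of the other 4. The exact two-sided sign-flip permutation test gave p = 0.03125 for each of these pairs, the smallest that 6 libraries allow. After adjustment over 20 comparisons among these 5 references it was 0.0625, so none passed 0.05. Among the other 4, the order did not hold across libraries: Arg-CCG-3 was below Arg-CCG-1 in 5 of 6 libraries (mean difference -18.3 points, SD 23.2, exact p = 0.125). In other cytosolic references A58 was located as the last base of a T loop spelled TTCGA or TTCAA, whatever the numbering. Of 46 such references covered there in each library, the median was 3.91% and the middle range 1.39% to 14.1%. Of these, 26 lay below Arg-ACG-3, 40 below Arg-CCG-3 and 43 below Arg-CCT-1.

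The base called in place of A58 is given next, and none of its comparisons between references passed 0.05 after adjustment. In Arg-CCT-1, 98.8% of misread bases were thymine and 0.61% guanine, pooled over the libraries. In Arg-CCG-3, 89.8% were thymine. Arg-CCG-3 is identical to Arg-CCT-2, Arg-CCT-3 and Arg-CCT-4 over the 22 bases from position 43 to 64, so reads within that run cannot be told apart. In Arg-CCG-1 guanine made up 57.4% and thymine 41%, and in Arg-CCG-2 guanine made up 54.5%. The share of all called bases read as guanine averaged 37.3% in Arg-CCG-1, 31.9% in Arg-CCG-2, 5.31% in Arg-CCG-3 and 0.44% in Arg-CCT-1. Arg-CCG-1 and Arg-CCG-2 each lay above Arg-CCG-3 and Arg-CCT-1 in 6 of 6 libraries (exact sign-flip permutation test, p = 0.03125, the smallest possible; 0.0625 after adjustment). The CCT and CCG-3 references share the stretch attgtgggttcgagtccca before and through the T loop, whereas Arg-CCG-1 has attgagggttcgagtccct there and Arg-CCG-2 has attgggggttcgagtccct.

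Skipping of A58 was frequent too. Reads without a base at 58 made up 19.9%, 2.08% and 12.3% in WT and 8.41%, 7.51% and 6.82% in KO for Arg-CCT-1. For Arg-CCG-1 they made up 4.76%, 17.9% and 17.6% in WT and 7.92%, 7.76% and 8.09% in KO. Arg-ACG-3 had 0 such reads in each library. In Arg-CCT-1 and Arg-CCG-1 the KO values were close together and the WT values lay on both sides of them. This did not hold elsewhere. Arg-CCG-2 had 22.4%, 0% and 3.57% in WT and 9.72%, 16.3% and 0% in KO. Arg-CCG-3 had 12.7%, 14.6% and 4.92% in WT and 0%, 12% and 2.38% in KO.

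**Figure D3:**
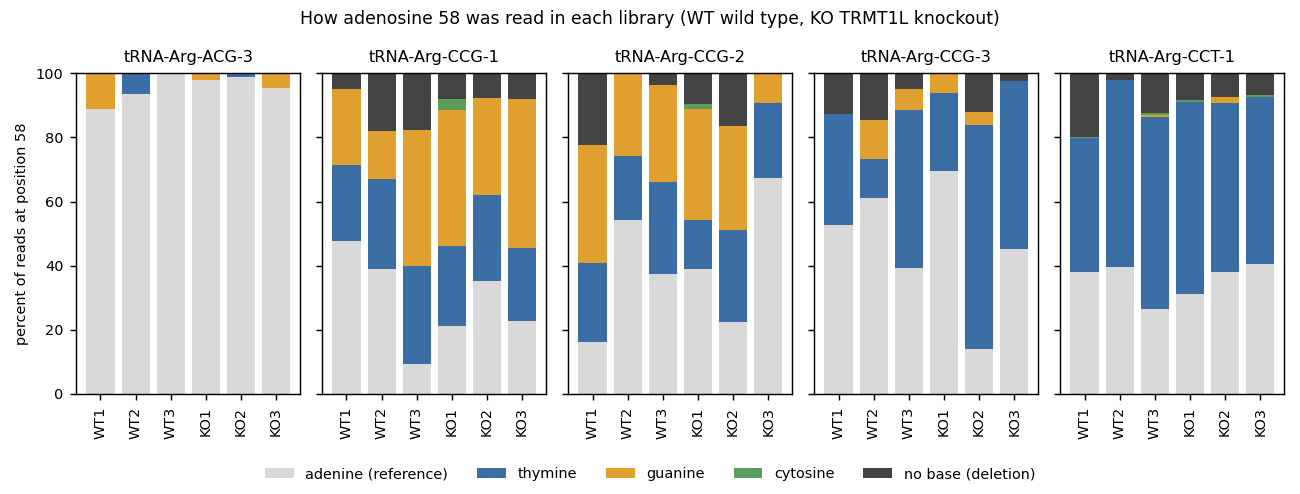
Percent of reads at position 58 (vertical axis) read as adenine, thymine, guanine or cytosine or lacking the base, as stacked bars for each library (horizontal axis, WT wild type, KO knockout) and for 5 tRNA-Arg references. Arg-ACG-3 is read as adenine in nearly all reads, Arg-CCT-1 is misread as thymine, and Arg-CCG-1 and Arg-CCG-2 are misread as both thymine and guanine.

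In WT replicate 2, the extra reads of Arg-TCG-1, Arg-TCT-1 and Arg-TCT-5 were read at A58 as the reference base, with adenine in 330 of 334, 449 of 450 and 217 of 217 bases. In the other libraries that list the position, Arg-TCG-1 was misread in 29.7% of 37 bases in WT replicate 1 and 42.6% of 47 in KO replicate 1. Arg-TCT-1 was misread in 32.6% of 43 bases in KO replicate 1 and 15.4% of 52 in KO replicate 3.

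Whether loss of TRMT1L changed these readouts was tested over all tRNA references at once, on sites with at least 100 reads in each library and a pooled rate of at least 1%. No arginine site passed the test. The 4 mismatch sites that could be tested were A58 of the 4 CCT references, which are near copies with similar counts and not separate results. Arg-CCT-1 had 60.7% ± 8.63 (SD, n = 3) in WT and 60.4% ± 4.83 (SD, n = 3) in KO (quasi-binomial test, limma-moderated dispersion, adjusted p = 0.987). Of all 114 sites 0% were called and 8.77% had an unadjusted p under 0.05, against 0 of the 4 arginine sites. Groups did not overlap at 3.51% of all sites and at 0 of the 4.

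The 8 deletion sites lay at positions 56 and 57 of the CCT references, where a deletion is listed at the base before it. At position 56 these references held the same deletion counts in each library except WT replicate 2, so the sites are not separate results. At position 56 of Arg-CCT-1 deletions took 14.2%, 2.07% and 7.59% of reads in WT and 0%, 7.51% and 0% in KO. The groups overlapped, and the limma-moderated test gave an adjusted p of 0.541. Among all 52 deletion sites 0% were called and 9.62% had an unadjusted p under 0.05, and groups did not overlap at 11.5%; each count was 0 for the 8 arginine sites.

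The 22 read-start sites lay in the CCT references and Arg-TCG-2, with near copies counted separately. At position 42 of Arg-CCT-1, 47.6%, 23.7% and 28.9% of the covering reads started there in WT and 51.4%, 44.3% and 49.8% in KO. WT replicate 1 lay within the KO range and the other 2 WT libraries below it. The means were 33.4% ± 12.6 (SD, n = 3) and 48.5% ± 3.72 (SD, n = 3), with an adjusted p of 0.616 in the limma-moderated test. Of all 907 start sites 0% were called, 8.16% had an unadjusted p under 0.05 and 13.3% had groups that did not overlap; each count was 0 for the 22 arginine sites.

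The level of each reference was compared by its highest coverage at any position. Before scaling, all KO libraries lay above all WT libraries for 8 of the 13 arginine references listed throughout, against 59.7% of the 124 references tested without overlap in either direction. The KO libraries were deeper, and TMM scaling took this into account. After scaling, edgeR's quasi-likelihood test called 14.5% of the 124 references at an adjusted p under 0.05, 10.5% higher and 4.03% lower in KO. None of the 13 arginine references was called, 2 (Arg-CCG-3 and Arg-TCG-1) had an unadjusted p under 0.05 (25% of all references), and 5 had scaled groups that did not overlap (29% of all). The 5 were Arg-CCG-3, the near copies Arg-CCT-1 and Arg-CCT-2, and the near copies Arg-CCT-3 and Arg-CCT-4. The median log2 fold change, KO over WT, was 0.17 over the 13 and -0.05 over the 124, with 7 of the 13 above 0.

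**Figure D4:**
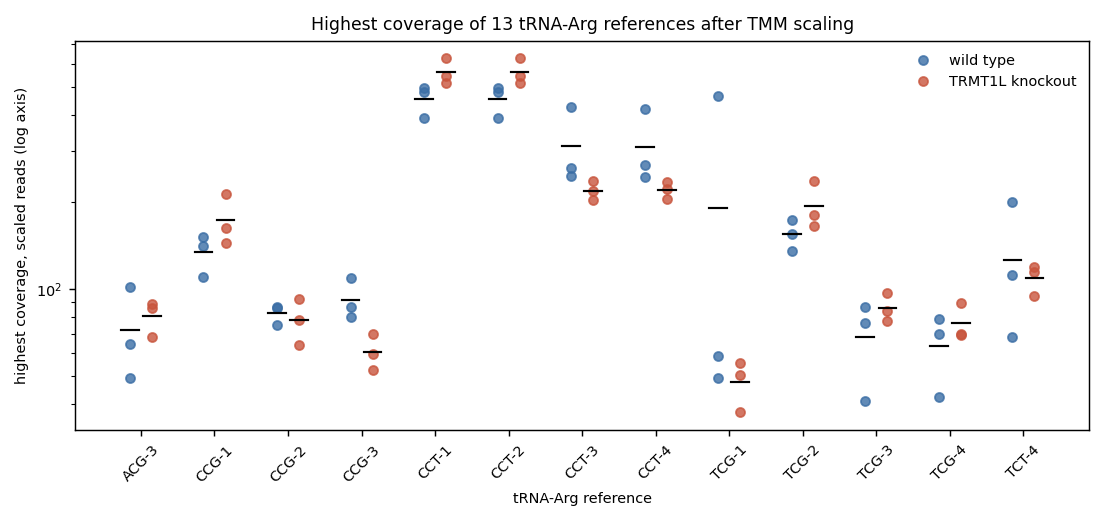
Highest coverage after TMM scaling (vertical log axis, scaled reads) of the 13 tRNA-Arg references listed in all 6 libraries (horizontal axis); points are libraries, blue for wild type and red for knockout, and bars are group means. The CCT-1 and CCT-2 knockout points lie above their wild-type points, the CCG-3, CCT-3 and CCT-4 knockout points lie below, and 1 wild-type point of TCG-1 stands far above the rest.

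The references without overlap went both ways, but the highest coverage of Arg-CCT-1 lay in its 5′ part and that of Arg-CCT-3 in its 3′ part. In the 3′ part Arg-CCT-1 had 357, 186 and 190 reads in WT and 259, 210 and 276 in KO. Arg-CCT-3 had nearly the same there, 363, 196 and 202 in WT and 258, 227 and 301 in KO. That 3′ part of Arg-CCT-1, fitted as its own feature, was also lower in KO (log2 fold change -0.48, edgeR adjusted p = 0.305). Arg-CCT-1 was higher in KO, at 454 ± 57.2 scaled reads in WT and 562 ± 57.4 in KO (SD, n = 3), a log2 fold change of 0.31 with SE 0.20 (edgeR adjusted p = 0.370). Arg-CCT-3 was lower, at 312 ± 100.3 and 219 ± 15.8 scaled reads, a log2 fold change of -0.51 with SE 0.26 (edgeR adjusted p = 0.257). Its scaled WT values were 427, 246 and 262 reads, and without WT replicate 1 the log2 fold change was -0.21 (edgeR adjusted p = 0.442). Arg-CCG-3 was lower, at 91.8 ± 15.1 and 60.7 ± 8.85 scaled reads, a log2 fold change of -0.60 with SE 0.26 (edgeR adjusted p = 0.165). The other CCG references had overlapping scaled groups, at 0.36 for Arg-CCG-1 (edgeR adjusted p = 0.418) and -0.08 for Arg-CCG-2 (edgeR adjusted p = 0.896). Arg-CCT-2 gave nearly the values of Arg-CCT-1, and Arg-CCT-4 those of Arg-CCT-3 (-0.22 without WT replicate 1). With the median coverage in place of the highest, Arg-CCT-1 changed sign to -0.54 (edgeR adjusted p = 0.211).

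The value with the greatest distance from 0 was that of Arg-TCG-1, at -1.99 with SE 0.73 (edgeR adjusted p = 0.1), and it rested on WT replicate 2. Without that library it was -0.18 (adjusted p = 0.788). With the replicate number as a block, edgeR called it at -1.30 (adjusted p = 0.00496) and called 32 references in all instead of 18. Without WT replicate 3 it was called at -2.45 (adjusted p = 0.00903). Upper-quartile normalization in edgeR called it as well, at -2.09 (adjusted p = 0.000448), with 27 references called in all. All of the fits that called it keep WT replicate 2. Of the remaining references, Arg-TCT-4 had a log2 fold change of -0.20 with SE 0.36 (edgeR adjusted p = 0.762), with scaled levels of 68.2, 112 and 199 reads in WT around 94.3, 119 and 115 in KO.

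**Figure D5:**
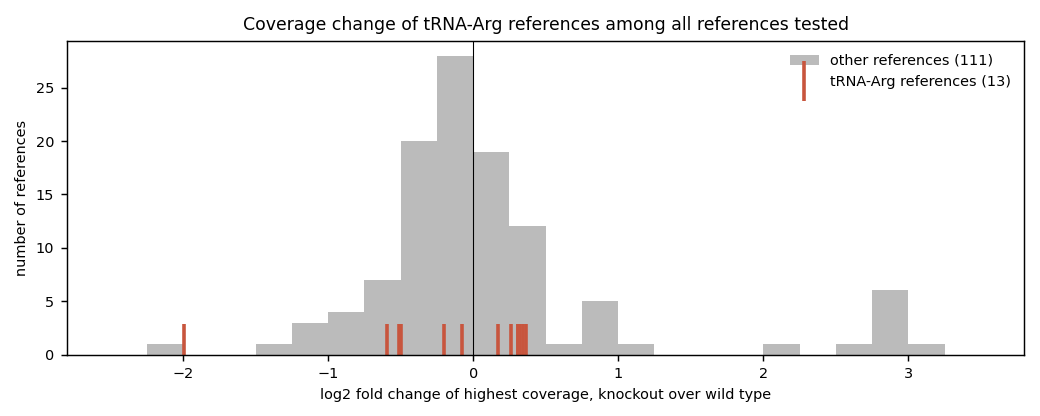
Distribution of the log2 fold change of highest coverage, knockout over wild type (horizontal axis), for the 111 other references tested (grey bars, vertical axis, number of references) with the 13 tRNA-Arg references as red ticks. Arginine references lie between -0.60 and 0.36 apart from Arg-TCG-1 at -1.99, within the range of the other references.

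Within CCT, Arg-CCT-1 had its highest coverage in the 5′ part and Arg-CCT-3 in the 3′ part. The log2 ratio of the highest coverage up to position 33 over the highest from position 40 on was 0.23, 1.03 and 0.66 for Arg-CCT-1 in WT and 1.24, 1.53 and 1.53 in KO. All KO ratios lay above all WT ratios, which was so for 18.7% of the 75 references in either direction. The difference was 0.79 with SE 0.23, and limma gave an adjusted p of 0.162, so it did not pass the threshold, which 6.67% of the 75 references did. Arg-CCT-2, the near copy, gave 0.79 (limma adjusted p = 0.16), and the median over all 75 references was 0.13. Without WT replicate 2 the difference was 0.99 and both references were called (limma adjusted p = 0.0381 for the lower). Leaving out any other library gave neither call, with 0.59 without WT replicate 1 (limma adjusted p = 0.315) and 0.74 without KO replicate 3 (limma adjusted p = 0.568) for Arg-CCT-1. With each part as a feature of its own, edgeR gave 0.36 for the 5′ part of Arg-CCT-1 (adjusted p = 0.315) and -0.48 for its 3′ part (adjusted p = 0.305). None of the 15 arginine parts was called, against 11.4% of 193 parts. No other arginine reference had both parts covered in all 6 libraries. In bulk tissue, fewer cells with a tRNA and less of it per cell cannot be told apart.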

How the data were processed

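Per the labels' protocols, small RNA was selected by size from total RNA of 3 wild-type and 3 TRMT1L knockout brain samples. Per the file headers, the deposited tables hold raw counts at each reference position, and insertions and deletions as text. The deposited mean and median base quality scores were not used. GATK 3.5 is named in the submitters' processing notes, while the aligner, pileup tool and reference set are not given in the sources used here. A stop is listed 1 position after the read start and was moved back.

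Sites were tested with a quasi-binomial model whose dispersion was moderated by limma 3.58.1 (R 4.3.3), levels with edgeR 4.0.16 (quasi-likelihood, TMM, filterByExpr), with DESeq2 1.42.0 as an alternative, and log2 ratios (pseudocount of 1 read) with limma. All tests were two-sided. Those of sites, levels and ratios covered all tRNA references, with copies of identical counts used once and references that reached 7900 reads left out. Their p-values were adjusted by Benjamini-Hochberg. The sign-flip tests at A58 covered only the arginine references compared there and were adjusted over those comparisons. The permutation test at G26 covered arginine references only and was not adjusted. The functions were tested on simulated data. Wilson 95% intervals cover counting error only. Same-numbered libraries had positive correlations in coverage (0.118, 0.134 and 0.141) and in read starts (0.117, 0.0241 and 0.0644). The replicate number, which comes from the titles, may therefore pair them there. For mismatches and deletions the correlations had both signs (lowest -0.123, highest 0.160). Counts of calls come from the fit without a block, and the blocked value is given where it changes a call. No 2 libraries of the same genotype agreed within sampling noise (chi-square per degree of freedom 16.7 to 59.7). All 19 members are accounted for, with positions 9, 26, 32, 34, 37 and 58 and the best-covered sites. The members and lists were chosen with earlier results of these data known.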

Additional observations from a re-analysis of the deposited data

How the results depend on the processing

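The counts of arginine sites called were 0 for mismatches, read starts and deletions under every alternative run, including the replicate block; a coverage minimum of 500 left no arginine site to test. For coverage, 1 reference (Arg-TCG-1) was called with upper-quartile normalization (adjusted p = 0.000448, fold change -2.09), with the replicate block (-1.30) and without WT replicate 3, and leaving out each library in turn gave 0 to 1 calls. Its fold change ran from -2.45 to -0.18 when libraries were left out. That of Arg-CCT-3 ran from -0.66 to -0.21, the latter without WT replicate 1. The log2 fold change of Arg-CCT-1 reversed to -0.54 with the median per-position coverage and otherwise lay between 0.08 and 0.45. For the 5′ to 3′ ratio, leaving out each library gave 0 to 2 calls, the 2 without WT replicate 2, and a difference of 0.59 to 0.99 for Arg-CCT-1. With the replicate block 0 of the 2 were called. Upper-quartile normalization moved the median log2 fold change of all references from -0.05 to -0.28, and total base calls to 0.09. The cause of these differences was not tested. Treating the 5′ and 3′ parts as separate features was chosen after seeing the data. The comparison of A34 and its alternatives were not run, because 2 WT libraries had fewer than 30 reads there. Positions 26, 32 and 34 were listed in some libraries only, and position 9 in none.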

Other observations

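Insertions were rare in arginine references. They occurred at 22 positions in any library, and at 0 of these were all knockout shares above all wild-type shares. The highest share was 7.58% at position 70 of Arg-CCG-1 in WT replicate 2, from 5 reads, which Arg-TCG-2 shares.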
